A study of Mus musculus with 6 samples.

Results

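The comparison was between 2 of the 6 single-cell libraries of the series, both from tumours grown in wild-type (WT) mice that had been irradiated and had received bone marrow. One library came from hosts given marrow of Mtdh knockout (KO) mice and the other from hosts given WT marrow, so that the groups differ in the genotype of the marrow alone. The libraries were chosen by their labels, and together they hold 11634 of the 37996 cells kept in the series, 5525 with KO marrow and 6109 with WT marrow. Female hosts were engrafted with Py8119 cells, a mouse mammary tumour line, 8 weeks after the marrow transfer, and tumours were harvested 4 weeks later. Live CD45+ cells, that is cells carrying the surface protein of blood-derived cells, were sorted from the dissociated tumours, and about 15000 were loaded per library on a droplet system that counts transcript 3' ends. The 4 other libraries, used here only for reference, came from KO hosts with KO or WT marrow and from intact KO and intact WT mice, which were not transplanted. How many mice stand behind a library, whether host cells survived the irradiation, and which part of Mtdh was removed are not given in the sources used here.

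Mtdh encodes metadherin, a membrane-associated protein of the endoplasmic reticulum and the cell periphery that is known as a driver of breast cancer growth and metastasis. Bone marrow gives rise to the myeloid and lymphoid cells that enter a tumour. Among them, macrophages present peptides on major histocompatibility complex (MHC) class II molecules and can draw in T cells with chemokines such as Cxcl9, while CD8 T cells move from a circulating naive or memory state to an effector state that kills with granzymes and perforin.

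The 2 libraries were of like depth. The KO marrow library held 6029 barcodes and 85616443 UMIs (molecules counted once by their barcode), with a median of 13003 UMIs and 3153 genes per kept cell. The WT marrow library held 6648 barcodes and 99532906 UMIs, with medians of 13771 and 3214. They shared 8 cell barcodes. Cells were put into classes by UMIs of fixed marker genes, with thresholds set after the marker distributions were seen, and 55 and 73 cells with markers of several classes and 122 and 143 without enough markers stayed apart. Levels are given as CPM, the UMIs of a gene scaled to 1000000 UMIs of its class in a library, and values are given for KO marrow first and WT marrow second. With 1 library a side there is no replicate check and no test: the 95% intervals are exact, cover counting error only, and say nothing of the spread between mice.

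Mtdh itself followed the marrow label in blood-derived classes and did not in the non-immune cells that came through the sort. In macrophages rich in complement C1q, the main class of both libraries, Mtdh stood at 19.0 CPM (17.9 to 20.2) with KO marrow and 112 CPM (109 to 114) with WT marrow, so that the level with KO marrow was 17.0% (15.9 to 18.2) of that with WT marrow. The same class held 15.0 CPM in the intact KO library, where host and marrow are both KO, and 110.5 in the intact WT library (scaled to the UMIs of the 30406 genes that the intact and transplanted files share). Mtdh UMIs of the class were thus lower and not absent in the KO libraries. The part of free RNA from other cells in this remaining level was not tested. Mtdh in CD8 T cells stood at 12.9 and 72.9 CPM, in C1q-low macrophages at 18.2 and 119.7, in neutrophils at 9.22 and 58.6, in monocytes at 12.8 and 89.2, and in NK cells at 23.7 and 121. In cells with mesenchymal or epithelial transcripts, a class that holds Py8119 cells or other non-immune cells, Mtdh was 419 and 438 CPM, and the level with KO marrow was 95.7% of that with WT marrow.

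A pair of small classes departed from this pattern, and most of their Mtdh UMIs with KO marrow came from few cells. Mtdh was 133 and 154 CPM in cDC1, the dendritic cells specialised in cross-presentation, but 37 of the 41 UMIs with KO marrow came from 2 of 17 cells, which a joint clustering placed among the mesenchymal cells. With WT marrow 35 of 93 UMIs came from 2 of 30 cells so placed. The cDC1 level with KO marrow was 86.7% (58.5 to 126) of that with WT marrow. It was 69.6% (51.4 to 94.1) in KO hosts and 112% (92.6 to 137) in intact KO against WT mice. What lay behind these cDC1 levels was not tested. In regulatory T cells Mtdh was 75.3 and 149 CPM, with 9 of 12 UMIs with KO marrow in 1 cell placed among the mesenchymal cells. The Y-linked genes Ddx3y and Eif2s3y had 0 UMIs in the C1q-high macrophages of both libraries and Kdm5d and Uty 0 or 1, so that host and marrow cells could not be told apart by sex and Mtdh was the transcript by which the marrow label could be checked.

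**Figure D1:**
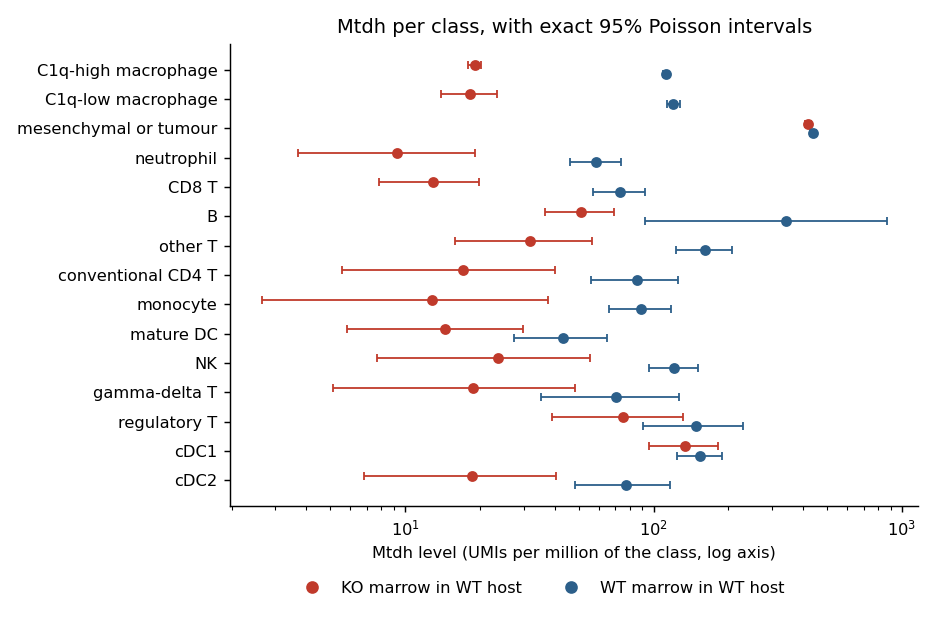
Mtdh in CPM of each class (log axis) with exact 95% Poisson intervals, red for KO marrow in WT hosts and blue for WT marrow in WT hosts. The levels with KO marrow lie left of those with WT marrow in the macrophage, monocyte, neutrophil and CD8 T cell classes, and the intervals meet in the mesenchymal or tumour class (419 and 438).

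B cells, CD8 T cells and mesenchymal or tumour cells had higher shares of the kept cells with KO marrow and C1q-low macrophages, NK cells, monocytes and neutrophils lower ones, each with a counting interval of the ratio off 1, while the share of C1q-high macrophages was nearly equal. B cells made up 4.14% (3.63 to 4.70) of kept cells with KO marrow, 229 cells, and 0.0818% (0.0266 to 0.191) with WT marrow, 5 cells. That is a log2 ratio of 5.66 (4.42 to 7.30), resting on 5 cells in the lower library. In the other pairs, which share no library with this one, B cells were 1.12% and 0.999% with KO and WT marrow in KO hosts and 10.2% and 3.05% in intact KO and WT mice, so that the low share with WT marrow in WT hosts stood below those of the 5 other libraries. Beyond the genes that set the class, the B cells of the KO marrow library carried Igkc, the kappa light chain, at 7262 CPM, H2-Aa, a chain of MHC class II, at 4209.96, and Ccr7, the receptor for lymph node chemokines, at 756.

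The CD8 T cell share was 4.25% (3.74 to 4.82) with KO marrow and 2.16% (1.81 to 2.56) with WT marrow, 235 and 132 cells, a log2 ratio of 0.98 (0.66 to 1.30). As a part of the T and NK cells they were 51.9% (47.2 to 56.6) and 36.4% (31.4 to 41.5), a log2 ratio of 0.51 (0.20 to 0.83). T and NK cells as a whole were 8.20% and 5.94% of kept cells, but this total includes the CD8 T cells and so is not a separate rise. No other T or NK cell class had a log2 ratio over kept cells whose interval lay above 0. NK cells, innate killer lymphocytes, went the other way, at 0.362% (0.221 to 0.559) and 0.753% (0.552 to 1.0) of kept cells, 20 and 46 cells. Their intervals of the log2 ratio, -1.06 (-1.89 to -0.27) over all kept cells and -1.52 (-2.36 to -0.73) over T and NK cells, lay below 0. Conventional CD4 T cells (59 and 60 cells), regulatory T cells (31 and 32) and gamma-delta T cells (32 and 24) had shares whose log2 intervals held 0, at 0.12 (-0.42 to 0.66), 0.10 (-0.66 to 0.86) and 0.56 (-0.25 to 1.39).

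Of all kept cells C1q-high macrophages took nearly the same share, whereas among myeloid cells they took a higher one with KO marrow. C1q-high macrophages were 64.0% (62.7 to 65.3) and 63.7% (62.4 to 64.9) of kept cells, a log2 ratio of 0.01 (-0.06 to 0.07). Myeloid cells as a whole were 75.6% and 83.8% of kept cells, and C1q-high macrophages were 84.7% (83.5 to 85.7) and 76.0% (74.8 to 77.2) of them, a log2 ratio of 0.16 (0.09 to 0.22). Macrophages with little C1q were 4.47% (3.94 to 5.05) and 10.0% (9.28 to 10.8), 247 and 612 cells, a log2 ratio of -1.16 (-1.38 to -0.95) over kept cells and -1.02 (-1.24 to -0.80) over myeloid cells. The 2 macrophage classes were separated at 30 UMIs of C1qa, C1qb and C1qc per 10000, and 3.80% and 5.88% of kept cells lay near that threshold, between 20 and 40. Neutrophils were 5.0% (4.44 to 5.60) and 7.37% (6.72 to 8.05) (log2 ratio -0.56, -0.78 to -0.34), and monocytes, their blood-borne relatives that give rise to macrophages, 0.652% (0.457 to 0.901) and 1.11% (0.865 to 1.41) (log2 ratio -0.77, -1.40 to -0.17). Shares of cDC1 (17 and 30 cells), cDC2 (21 and 19) and mature dendritic cells (44 and 49) had log2 intervals that held 0. Mesenchymal or tumour cells, which as a rule carry no CD45 and fall outside the sort gate, were 8.85% (8.11 to 9.63) and 6.68% (6.07 to 7.33). Cluster 19 of the joint clustering, 51 and 22 cells led by Nrgn, Ppbp and Krt18, scored highest for the markers of this class. Its part in the class was not tested. Because shares add up to a fixed total, a higher share of one class lowers the others.

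In the pairs with other hosts the CD8 T cell share of kept cells differed in the same direction and by more. With KO and WT marrow in KO hosts CD8 T cells were 15.8% and 1.57%, and in intact KO and WT mice 4.36% and 1.08%, while their log2 ratios over T and NK cells were 0.76 (0.45 to 1.10) and 0.31 (-0.07 to 0.70). Monocytes, lower with KO marrow in WT hosts, were higher in the other pairs, at 4.02% and 0.592% in KO hosts and 2.5% and 0.582% in intact mice. C1q-low macrophages were 3.33% and 3.89% in KO hosts, with a log2 interval that held 0, -0.22 (-0.49 to 0.05), and 4.78% and 5.93% in intact mice, -0.31 (-0.53 to -0.09). Over myeloid cells both of these intervals held 0, at 0.07 (-0.20 to 0.34) and -0.01 (-0.22 to 0.21). NK cells were 0.771% and 0.481% of kept cells in KO hosts, a log2 ratio of 0.68 (-0.01 to 1.41), and 1.60% and 0.597% in intact mice, 1.43 (0.89 to 1.99), but over T and NK cells the log2 ratios were -1.89 (-2.58 to -1.16) and -0.29 (-0.82 to 0.28), so that the direction turned with the denominator. Neutrophils were 6.83% and 3.66% in KO hosts, higher with KO marrow, and 0.969% and 1.21% in intact mice. The C1q-high macrophages, nearly equal in WT hosts, were 53.7% and 76.8% of kept cells in KO hosts and 59.7% and 78.3% in intact mice. Mesenchymal or tumour cells, higher with KO marrow in WT hosts, were lower in the other pairs. They were 3.06% and 6.72% in KO hosts (log2 ratio -1.14, -1.38 to -0.89) and 2.68% and 3.42% in intact mice (-0.35, -0.64 to -0.06). None of these differences between pairs was tested, and each library is 1 sample.

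**Figure D2:**
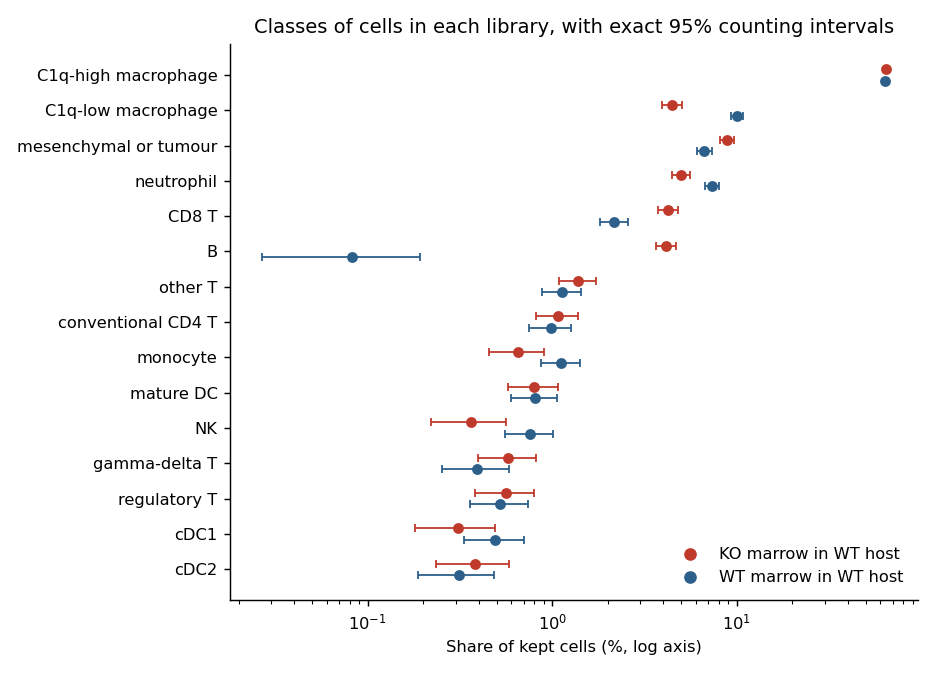
Share of kept cells in each marker-gated class (log axis) with exact 95% binomial intervals, red for KO marrow and blue for WT marrow, both in WT hosts. B cells are furthest apart (4.14% and 0.0818%), CD8 T cells lie higher and C1q-low macrophages, neutrophils, monocytes and NK cells lower with KO marrow, and the C1q-high macrophages coincide.

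CD8 T cells with KO marrow carried more transcript of genes that mark naive and central memory T cells, and less of granzyme B. Of the 14 genes of the naive and memory list, 12 had at least 50 UMIs over both libraries, and 7 of these were at least 2-fold higher with KO marrow with a counting interval off 1, among them Tcf7, Lef1, Ccr7, S1pr1, Klf2 and Slamf6. No gene among the 12 was 2-fold lower, and 11 had a ratio above 1. Their median log2 ratio was 1.09, against -0.03 over all 4972 genes of the class with enough UMIs, of which 113 (2.27%) were past 2-fold, 79 (1.59%) higher and 34 (0.684%) lower. The class held 235 and 132 cells with median depths of 5843 and 6368 UMIs, and its CD8 T markers summed to 5410.01 and 5366 CPM. A single cluster of the joint clustering held 91.9% and 91.7% of these cells.

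Ccr7, which guides T cells to lymph nodes, stood at 201 and 68.8 CPM, with UMIs in 97 and 20 cells and a log2 ratio of 1.55 (1.16 to 1.95). S1pr1, the receptor by which T cells leave lymphoid organs, stood at 124 and 50 CPM (log2 ratio 1.31, 0.85 to 1.80). Both receptors were higher with KO marrow, and so was Klf2, the transcription factor that drives S1pr1. Klf2 stood at 766 and 345 CPM (log2 ratio 1.15, 0.97 to 1.33).

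The transcription factors of the naive and memory state were higher as well. Tcf7, which encodes TCF1, stood at 124 and 52.1 CPM (log2 ratio 1.25, 0.80 to 1.73), and its partner Lef1 at 180.4 and 84.4 (log2 ratio 1.10, 0.73 to 1.47). Slamf6, a surface receptor of memory and stem-like T cells, stood at 30.9 and 14.6 CPM. The interleukin 7 receptor gene Il7r, at 166 and 97.9 CPM, and Foxp1, a factor of T cell quiescence, at 168 and 112, did not reach 2-fold. Bcl2, the survival gene, was the member without a higher level, at 559 and 569.9 CPM. Outside the list, Dapl1, a transcript typical of naive CD8 T cells, led the genes named by the rule given under the processing, at 149 and 25.0 CPM in 59 and 9 cells (log2 ratio 2.57, 1.96 to 3.25).

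The share of CD8 T cells with a UMI showed the same order at equal depth. Each cell was thinned to 2000 UMIs, which left out 1 cell per library, and the share of cells with a Ccr7 UMI was then 25.6% (20.2 to 31.7) and 7.63% (3.72 to 13.6), against 41.3% and 15.2% unthinned. Lef1 was found in 25.2% (19.8 to 31.3) and 8.40% (4.27 to 14.5) of thinned cells and Dapl1 in 16.7% (12.1 to 22.1) and 2.29% (0.475 to 6.55). Unthinned they were in 49.4% and 28.0% and in 25.1% and 6.82%. Tcf7 was found in 19.7% (14.8 to 25.3) and 12.2% (7.15 to 19.1) of thinned cells, with intervals that overlapped (37.4% and 25.8% unthinned). For background, C1q-high macrophages were drawn at random, with median depths of 14474 and 14422 UMIs in the draw, and 493 and 488 of them were deep enough to thin. In these the Ccr7 share was 0.406% and 0.205%, and Lef1 and Dapl1 had no UMI. S1pr1 was in 20.9% and 7.63% and Klf2 in 51.7% and 28.2% of thinned CD8 T cells (unthinned 37.4% and 22% and 74.5% and 51.5%). C1q-high macrophages carried both genes themselves, S1pr1 at 39.8 and 44.5 CPM and Klf2 at 596 and 486, and so give no background for them.

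Genes of effector function were not higher as a group. Of 14 measured cytotoxic genes, 1 was past 2-fold higher and 1 lower, 6 had a ratio above 1, and the median log2 ratio was -0.22. Gzmb, granzyme B, the main killing protease, stood at 974 and 1893 CPM (log2 ratio -0.96, -1.06 to -0.86), and after thinning 35.0% (28.9 to 41.5) and 61.8% (52.9 to 70.2) of cells had a UMI of it (45.1% and 79.5% unthinned). The granule gene Nkg7 stood at 1478 and 1928 CPM, and Xcl1, a chemokine that attracts cDC1, at 182 and 334. Prf1, perforin, went the other way at 122 and 82.3 CPM (log2 ratio 0.57, 0.19 to 0.97), and Ifng, interferon gamma, stood at 21.9 and 32.3 with an interval of its log2 ratio that held 0, -0.56 (-1.31 to 0.19). Gzmf, a granzyme of strongly stimulated cells, was 892 and 450.1 CPM (log2 ratio 0.99, 0.83 to 1.15). The gene past 2-fold higher was Gzma, granzyme A, at 999.8 and 337 CPM, but its UMIs came from 26 and 8 cells, and the 3 highest cells held 39.8% and 85.1% of them.

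Genes of exhaustion, antigen receptor signalling and interferon response had no common higher level either. Of 14 inhibitory receptor and exhaustion genes 2 were past 2-fold higher, with a median log2 ratio of -0.09. Tox, the transcription factor of exhaustion programs, stood at 78.6 and 27.1 CPM (log2 ratio 1.54, 0.92 to 2.21). It was in 13.2% (9.18 to 18.3) and 6.11% (2.67 to 11.7) of thinned cells, with intervals that overlapped. The checkpoint receptor genes Pdcd1, Lag3 and Ctla4 stood at 226 and 251, 27.7 and 24.0, and 72.2 and 76.1 CPM. Havcr2, which encodes TIM-3, stood at 30.3 and 13.6 CPM. It was in 6.84% (3.96 to 10.9) and 2.29% (0.475 to 6.55) of thinned CD8 T cells, with intervals that overlapped (13.6% and 7.58% unthinned). It was also in 11% and 6.97% of thinned C1q-high macrophages, which carry it too and were not read as background. Antigen receptor response genes had a ratio above 1 in 1 of 7 cases (median -0.32), interferon genes in 2 of 13 (median -0.50), and cell cycle genes in 5 of 14 (median -0.11).

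Ccr2, Ifitm2 and Ly6a were among the genes named as lower with KO marrow. Ccr2, the receptor for the monocyte chemokine Ccl2, stood at 26.4 and 78.2 CPM in 26 and 37 cells (log2 ratio -1.56, -2.15 to -1.0). Ifitm2, an interferon-induced membrane gene, stood at 696 and 1424, and Ly6a, the activation antigen Sca-1, at 182 and 398. Crem, a cyclic AMP responsive factor, stood at 88.3 and 194, Fgl2 at 138 and 277, the thrombin receptor gene F2r at 37.4 and 76.1, and the membrane genes Tmem176a and Tmem176b at 38.6 and 92.7 and 51.5 and 115 CPM. Cxcl10 stood at 21.3 and 93.8 CPM, with 88.9% of its UMIs with WT marrow in 3 cells, and without the 3 highest cells of each library its log2 ratio turned to 0.44.

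Macrophage transcripts in the CD8 T cells were higher as well, and their part in these results was not tested. The 8 macrophage markers summed to 2629.6 and 2054 CPM in CD8 T cells, against 57131 and 49278 CPM in C1q-high macrophages. Spp1, osteopontin, abundant in tumour macrophages, stood at 622 and 256 CPM in CD8 T cells, with 66.5% of its UMIs with KO marrow in 3 cells. Ctsl, a cathepsin of macrophages, stood at 213 and 62.5 CPM and had a log2 ratio of 0.11 without the 3 highest cells. B cell RNA was near 0 there, with Cd79a at 1.29 and 0 CPM and Igkc at 16.7 and 8.34. Igfbp4, an insulin-like growth factor binding protein at 110.2 and 18.8 CPM in CD8 T cells, was 789.5 and 740.5 in mesenchymal or tumour cells, and was in 11.1% and 1.53% of thinned CD8 T cells and 16.2% and 21.9% of thinned C1q-high macrophages.

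In the other pairs the naive and memory genes lay the other way. With KO against WT marrow in KO hosts 2 of 13 measured members had a ratio above 1, with a median log2 ratio of -1.22, and in intact KO against WT mice 2 of 12, with a median of -1.22. Tcf7 stood at 7.46 and 74.0 CPM with KO and WT marrow in KO hosts, and S1pr1 at 5.34 and 63.7. In intact KO and WT mice Tcf7 stood at 55.2 and 233 CPM and S1pr1 at 77.1 and 168. The difference between the pairs was not tested.

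**Figure D3:**
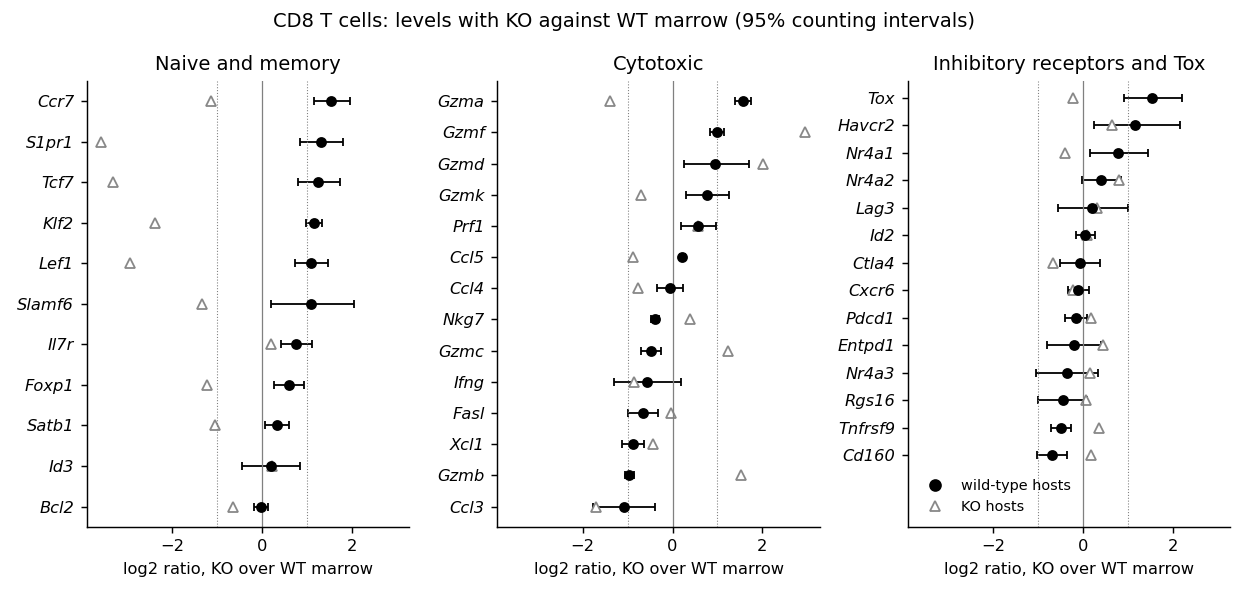
Log2 ratio of the level in CD8 T cells, KO over WT marrow, for measured genes of 3 lists, with black points and exact 95% counting intervals for WT hosts and grey open triangles for KO hosts; dotted lines mark 2-fold. The naive and memory genes lie right of 0 in WT hosts except Bcl2 and mostly left of 0 in KO hosts, while the cytotoxic and inhibitory genes lie on both sides.

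C1q-high macrophages with KO marrow carried more transcript of the antigen presentation genes of MHC class II. Some of these genes hold the same short promoter motifs. The 150 bases before the start are shown for 3 of the genes to place the motifs. They are H2-Eb1, which was past 2-fold, H2-Aa, just short of it, and H2-DMb1, a peptide-loading gene with a small difference. Sequences are from RefSeq, build GRCm38.p6, 5' to 3' on the strand of the gene, at chr17:34305717-34305866 (plus strand), chr17:34287824-34287973 (minus) and chr17:34153041-34153190 (plus), and capitals mark TGATTGG, known as a Y box, and TGATGATGC.

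H2-Eb1: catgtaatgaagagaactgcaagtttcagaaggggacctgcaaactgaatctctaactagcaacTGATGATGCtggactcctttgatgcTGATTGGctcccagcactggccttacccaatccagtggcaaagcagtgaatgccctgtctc
H2-Aa: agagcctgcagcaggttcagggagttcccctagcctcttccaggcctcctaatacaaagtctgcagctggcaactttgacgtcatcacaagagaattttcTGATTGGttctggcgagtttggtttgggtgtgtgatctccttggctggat
H2-DMb1: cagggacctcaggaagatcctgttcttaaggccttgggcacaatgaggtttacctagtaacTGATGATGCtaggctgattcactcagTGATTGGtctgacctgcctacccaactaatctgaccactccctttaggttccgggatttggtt

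The motifs were chosen after these promoters were read, and were searched on both strands of the 250 bases before each start. TGATTGG was found in 6 of the 7 class II list members with a promoter entry and TGATGATGC in 2, against 7.23% and 0.213% of all 32851 promoters in the table. H2-DMa had neither motif, H2-Aa lacked TGATGATGC, and H2-Ab1, Cd74 and Ciita had no entry. As the motifs were picked from these promoters, the shares give no support for a motif common to the list. Such a match is a description of the sequence and not a measured binding site.

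All 10 class II genes had a higher level with KO marrow, 2 of them past 2-fold, and their median log2 ratio was 0.67, against -0.02 over all 12088 genes, of which 140 (1.16%) were past 2-fold, 69 (0.571%) higher and 71 (0.587%) lower. Ciita, the transactivator of class II genes, had the largest ratio of the list, at 14.2 and 6.30 CPM (log2 ratio 1.17, 0.99 to 1.35), and was found in 5.24% and 2.96% of cells thinned to 5000 UMIs. The chains that bind peptide came next. H2-Eb1 stood at 1878 and 893 CPM (log2 ratio 1.07, 1.06 to 1.09), H2-Aa at 2015 and 1075 (log2 ratio 0.91, 0.89 to 0.92) and H2-Ab1 at 2363 and 1248 (log2 ratio 0.92, 0.91 to 0.93). Cd74, the invariant chain that escorts them, stood at 4933 and 3078 CPM (log2 ratio 0.68, 0.67 to 0.69). The genes that load peptide differed less, with H2-DMa at 389.8 and 353, H2-DMb1 at 211 and 165 and H2-DMb2 at 14.5 and 14.4 CPM, as did H2-Ob, which slows loading, at 5.30 and 3.56. All 15 measured class I genes, which present peptide to CD8 T cells, were above 1 too, with a median log2 ratio of 0.18 and none past 2-fold.

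The share of a group of cells rich in class II transcript differed as well. Cluster 2 of the joint clustering, in which class II genes and Cxcl9 lead, held 732 cells (20.7%) and 338 cells (8.69%) of the C1q-high macrophages. Without that cluster 8 of 10 class II genes were above 1, with a median log2 ratio of 0.51 and 0 past 2-fold. H2-Aa then stood at 1222 and 838 CPM (log2 ratio 0.54) and H2-Eb1 at 1121 and 682 (0.72). Cluster 2 was drawn from these same transcripts, so smaller differences without it follow in part from that choice. They do not place the class II difference in its cells. Outside the macrophages H2-Aa was 2192 and 1382 CPM in monocytes, with a log2 ratio of 0.67 (0.50 to 0.83). It was 7259 and 7298 CPM in cDC1 and 11537 and 11319.6 CPM in cDC2, whose log2 ratios -0.01 (-0.08 to 0.07) and 0.03 (-0.04 to 0.10) held 0, and 7368 and 6094 CPM in mature dendritic cells (log2 ratio 0.27, 0.20 to 0.34).

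B cells, which carry class II genes, were more frequent in the same library. Igkc, the B cell light chain, stood at 13.8 and 0.0970 CPM in C1q-high macrophages, 0.191% of its B cell level with KO marrow, and H2-Aa there was at 47.9% of its B cell level. The part of B cell RNA in the class II difference was not tested. In KO hosts and intact mice the class II genes were also higher with KO marrow or in the KO mice, 10 of 10 above 1 in each pair, with median log2 ratios of 1.46 and 1.57. H2-Aa stood at 7629.5 and 2494 CPM with KO and WT marrow in KO hosts and at 6495 and 1569.9 in intact KO and WT mice, above both libraries of WT hosts in the first of each pair. The level with WT marrow in KO hosts, 2494, was also above that with KO marrow in WT hosts, 2015, while that of intact WT mice, 1569.9, was below it.

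Cxcl9, the interferon-induced chemokine that attracts T cells through Cxcr3, had the largest difference of the interferon genes in these macrophages. It stood at 124 and 26.0 CPM, with UMIs in 392 and 103 of 3536 and 3889 cells and a log2 ratio of 2.25 (2.17 to 2.33). Of cells thinned to 5000 UMIs 6.76% (5.94 to 7.66) and 1.49% (1.13 to 1.94) had a Cxcl9 UMI (11.1% and 2.65% unthinned, with 120 and 205 shallower cells left out). In CD8 T cells the shares were 4.08% (1.51 to 8.67) and 0% (0 to 3.66), with 88 and 33 shallower cells left out. These CD8 T cell intervals held the macrophage shares of the same libraries, so the background was not clearly lower. Median depths were 14209 and 14835 UMIs in these macrophages and 5843 and 6368 in CD8 T cells. The level without cluster 2, which Cxcl9 itself leads, was 28.4 and 12.1 CPM. Both libraries lay below the KO marrow library of KO hosts and the intact KO library, at 2028 and 1525 CPM. The WT libraries of those pairs stood at 187 and 138, also above the 124 CPM of KO marrow in WT hosts. WT marrow in WT hosts, at 26.0 CPM, was thus the lowest library of the series.

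The rest of the interferon list did not share this difference. Of 22 measured genes 3 were past 2-fold higher (Cxcl9, Gbp4 and Iigp1) and 12 had a ratio above 1, with a median log2 ratio of 0.08, and without cluster 2 only Cxcl9 was past 2-fold. Iigp1, an immunity-related GTPase, stood at 19.0 and 8.24 CPM, and Gbp2, a guanylate binding protein, at 41.8 and 23. Cxcl10 stood at 104 and 105 CPM, Ifit1, an antiviral gene of the type I response, at 9.12 and 15.1, and Isg15 at 40.8 and 52.4. In the KO hosts 21 of 22 interferon genes were above 1 (median log2 ratio 1.55), and in intact mice 21 of 21 (median 2.22).

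**Figure D4:**
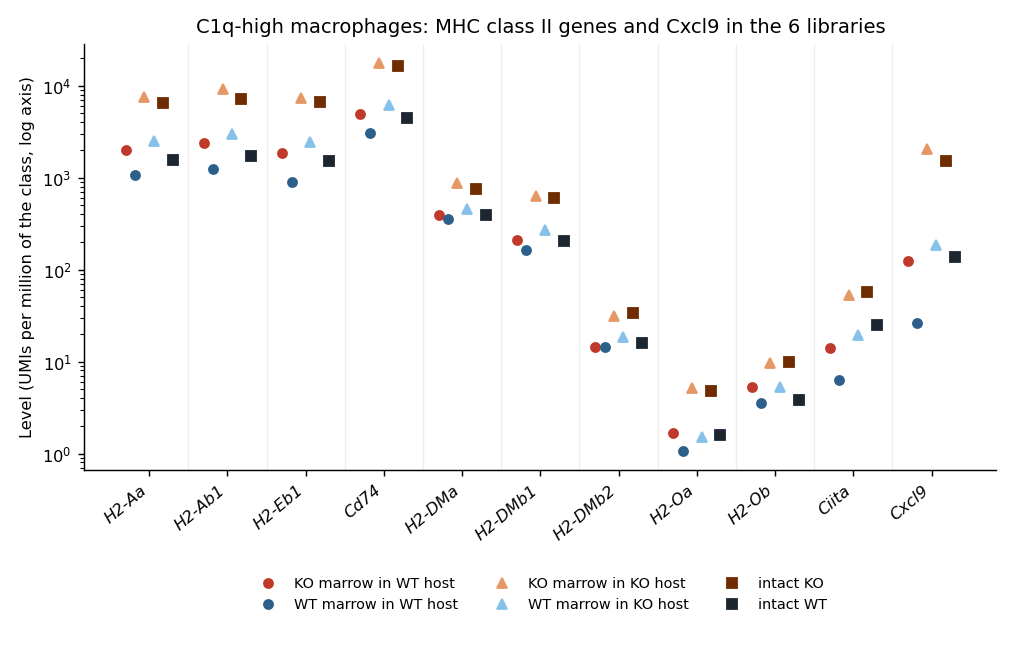
Levels of the MHC class II genes and Cxcl9 in C1q-high macrophages (CPM of the class, log axis), 1 point per library, circles for WT hosts, triangles for KO hosts and squares for intact mice. KO marrow in WT hosts lies above WT marrow in WT hosts for each gene, with H2-DMb2 nearly level (14.5 and 14.4), and the KO marrow library of KO hosts and the intact KO library lie above both.

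Cell cycle genes lay lower with KO marrow in C1q-high macrophages. Of 16 measured, 1 had a ratio above 1, the median log2 ratio was -0.45 and 0 were past 2-fold. Mki67, the proliferation marker Ki-67, stood at 45.8 and 71.3 CPM (log2 ratio -0.64, -0.71 to -0.57) and Top2a, topoisomerase II alpha, at 44.2 and 65.3 (log2 ratio -0.56, -0.64 to -0.49). The list had a median of 0.35 in KO hosts, with 15 of 16 above 1, and of -0.29 in intact mice, with 1 of 16.

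Inflammatory genes were split. Of 17 measured, 2 were past 2-fold higher, the interleukin 12 subunit Il12b and the chemokine Ccl5, and 1 lower, Il6, with a median log2 ratio of -0.27. Il6, interleukin 6, stood at 7.14 and 14.7 CPM in 162 and 348 cells (log2 ratio -1.04, -1.22 to -0.87). Areg, amphiregulin, a ligand of the epidermal growth factor receptor, was lower too, at 66.9 and 153 CPM in 471 and 842 cells (log2 ratio -1.19, -1.25 to -1.14). Ccl17, a chemokine that attracts CD4 T cells, stood at 10.1 and 21.2 CPM, Hspb1, a small heat shock protein, at 8.07 and 19.9, Alox15, a lipoxygenase, at 1.14 and 4.41, and Csf3, the granulocyte growth factor, at 1.32 and 3.12. Gpx3, a secreted glutathione peroxidase, stood at 4.17 and 9.08 CPM and Cd59a, a complement inhibitor, at 4.10 and 8.53.

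A few genes differed in many cells of the class and far more than the lists. Mid1, a microtubule-associated ubiquitin ligase, stood at 19.0 and 1.62 CPM with UMIs in 816 and 97 cells, and Xlr, an X-linked lymphocyte gene, at 17.3 and 1.21 in 434 and 47. The peptide transporter gene Slc15a2 stood at 8.48 and 0.873 CPM in 340 and 43 cells, and Psma8, a proteasome subunit of the testis, at 0.0736 and 2.89 in 3 and 166, the other way. For Mid1 the WT marrow library was the low one, since the other libraries held 18.9 and 11.9 (KO hosts) and 20.5 and 18.7 CPM (intact), and for Psma8 the KO marrow library was, with 1.84 and 1.39 and 2.05 and 3.45 elsewhere. Xlr was lower with KO marrow in KO hosts, at 0.485 and 5.12 CPM, as was Slc15a2, at 0.987 and 4.19. Other named genes were higher from few cells: H2-M2 at 8.94 and 0.517 CPM in 88 and 16 cells, Dnase1l3, a secreted DNase, at 4.30 and 0.501 in 65 and 24, Pla2g2d, a secreted phospholipase, at 3.20 and 0.0485 in 30 and 3, and Retnla at 15.6 and 0.194 in 34 and 3, with 93.5% of its UMIs with KO marrow in 3 cells. Platr17 and Dnd1 stood at 5.83 and 1.55 and at 1.97 and 0.485 CPM.

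The C1q-low macrophages, fewer with KO marrow, also differed in kind. With WT marrow they held a set of cells rich in Chil3, Car4 and Pparg that was nearly missing with KO marrow. With KO marrow the class as a whole carried more Mmp12, Cd36 and interferon-induced transcript. Of 8872 genes 311 (3.51%) were past 2-fold, 163 (1.84%) higher and 148 (1.67%) lower, and the median log2 ratio over all genes was 0.02. The class held 247 and 612 cells with median depths of 12264 and 14186 UMIs. Cluster 16 of the joint clustering, led by Chil3, Car4 and Ear2, held 6 cells (2.43%) and 121 cells (19.8%) of them, cluster 1 59 cells (23.9%) and 219 cells (35.8%) and cluster 3 128 cells (51.8%) and 194 cells (31.7%).

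Chil3, a secreted chitinase-like protein of alternatively activated and alveolar macrophages, stood at 1040 and 4163 CPM in 60 and 379 cells, a log2 ratio of -2.0 (-2.05 to -1.95). Car4, a membrane carbonic anhydrase of the same cells, stood at 6.87 and 166 CPM in 4 and 105 cells (log2 ratio -4.60, -5.26 to -4.00). Pparg, the lipid-sensing nuclear receptor that alveolar macrophages depend on, stood at 4.78 and 30.1 CPM (log2 ratio -2.65, -3.48 to -1.93). Cells with at least 3 UMIs of Chil3 and 1 each of Car4 and Ear2, a definition chosen after the values were seen, numbered 5 of 5525 kept cells (0.0905%, 0.0294 to 0.211) with KO marrow and 100 of 6109 (1.64%, 1.33 to 1.99) with WT marrow. They held 22.3% and 48.7% of all Chil3 UMIs. KO and WT marrow in KO hosts gave 10 and 36 such cells, and intact KO and WT mice 42 and 78.

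Further genes were lower in the class. Thbd, thrombomodulin, stood at 66.6 and 279 CPM (log2 ratio -2.07, -2.27 to -1.87), Wfdc21 at 16.4 and 117, Cdc42ep3, a Cdc42 effector, at 11.3 and 61.1, and Ccdc80 at 8.96 and 47.0. Ereg, epiregulin, a growth factor of the same receptor family as amphiregulin, stood at 10.4 and 48.9 CPM in 2 and 71 cells, Cited1, a transcriptional coactivator, at 1.79 and 13.3, and Il6 at 15.8 and 50.5. Without cluster 16 (241 and 491 cells) Chil3 was 602 and 1401 CPM (log2 ratio -1.22), Thbd 60.4 and 217 and Pparg 3.37 and 14.5. Car4 and Wfdc21 were no longer past 2-fold, at 5.83 and 8.67 and 13.8 and 24.0 CPM. Chil3, Car4 and Wfdc21 are among the genes that lead cluster 16, so their smaller differences without it follow in part from how it was drawn. The share of the class without that cluster had a log2 ratio of -0.88.

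Mmp12 and Cd36 were among the genes named as higher with KO marrow. Mmp12, Cd36 and Mmp13 are also among the genes that lead cluster 3, which held 51.8% and 31.7% of the class. The part of that cluster's share in their differences was not tested. Mmp12, the macrophage elastase, stood at 4630 and 1845 CPM (log2 ratio 1.33, 1.30 to 1.36), and Mmp13, a collagenase, at 172 and 46.4, with 39.7% of its UMIs with KO marrow in 3 cells. Cd36, the fatty acid and oxidised lipid receptor, stood at 99.1 and 32.9 CPM (log2 ratio 1.59, 1.36 to 1.82), Ass1, which makes argininosuccinate for arginine synthesis, at 60.9 and 19.2, and Dpys, of pyrimidine breakdown, at 53.5 and 16.2. Cenpf, of the kinetochore, stood at 41.8 and 13.4 CPM. H2-M2 (61.8 and 3.35 CPM in 13 and 5 cells) and Ctsk, cathepsin K (268 and 48.1), had 76.8% and 86.4% of their UMIs with KO marrow in 3 cells. Saa3, serum amyloid A3, stood at 87.2 and 11.7 CPM with 96.2% in 3 cells, and its log2 ratio without them was -0.29.

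Of the gene lists in C1q-low macrophages, the interferon list had the highest median. Of 16 measured, 7 were past 2-fold higher (Cxcl10, Irgm1, Ifit1, Ifit2, Ifit3, Rsad2 and Oasl2) and 15 had a ratio above 1, with a median log2 ratio of 0.92. Cxcl10, the chemokine related to Cxcl9, stood at 98.8 and 46.7 CPM (log2 ratio 1.08, 0.87 to 1.29), and Ifit1 at 40 and 10.7 with 72.4% of its UMIs with KO marrow in 3 cells. Without cluster 16 the median was 0.67 and 3 genes were past 2-fold, in cluster 1 alone 3 of 6 genes with enough UMIs were above 1 (median -0.10), and in cluster 3 alone 3 of 9 (median -0.08). Within each of these 2 clusters the list had no common direction. The clusters were drawn from the same transcripts, so cells rich in interferon genes could fall outside clusters 1 and 3 by that step alone. The values within them therefore do not settle how the list differed. Cluster 10, which Rsad2, Ifit2, Ifit3 and Ifit1 lead, held 16 cells (6.48%) and 17 cells (2.78%) of the class, and its part in the list's median was not tested.

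MHC class II genes were higher in the class and within clusters 1 and 3, the 2 that were looked at alone. Of 8 measured, 2 were past 2-fold higher (H2-Eb1 and Ciita) and 7 above 1, with a median log2 ratio of 0.72, which was 0.51 without cluster 16, 0.70 in cluster 1 and 0.62 in cluster 3. H2-Aa stood at 1136 and 639 CPM (log2 ratio 0.83, 0.77 to 0.89). Cell cycle genes were above 1 in 16 of 16 cases, 5 of them past 2-fold, with a median of 0.55, in 15 of 16 cases (median 0.35) without cluster 16, in 4 of 10 cases (median -0.32) in cluster 1 and in 2 of 3 (median 0.01) in cluster 3. Cluster 11, which cell cycle genes such as Mki67 and Top2a lead, held 13 cells (5.26%) and 13 cells (2.12%) of the class, and its part in the list's median was not tested. Cells rich in cell cycle genes could likewise fall outside clusters 1 and 3 by the clustering alone. Genes of cholesterol synthesis, uptake and efflux had a median log2 ratio of -0.64, with 4 of 16 above 1. The median was -0.28 without cluster 16 and -0.28 in cluster 1 (2 of 15 above 1), and it turned to 0.12 in cluster 3, with 7 of 12 above 1. Hmgcs1, an enzyme of cholesterol synthesis, stood at 31.4 and 58.0 CPM, while Abca1, a cholesterol exporter, stood at 312 and 231.

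**Figure D5:**
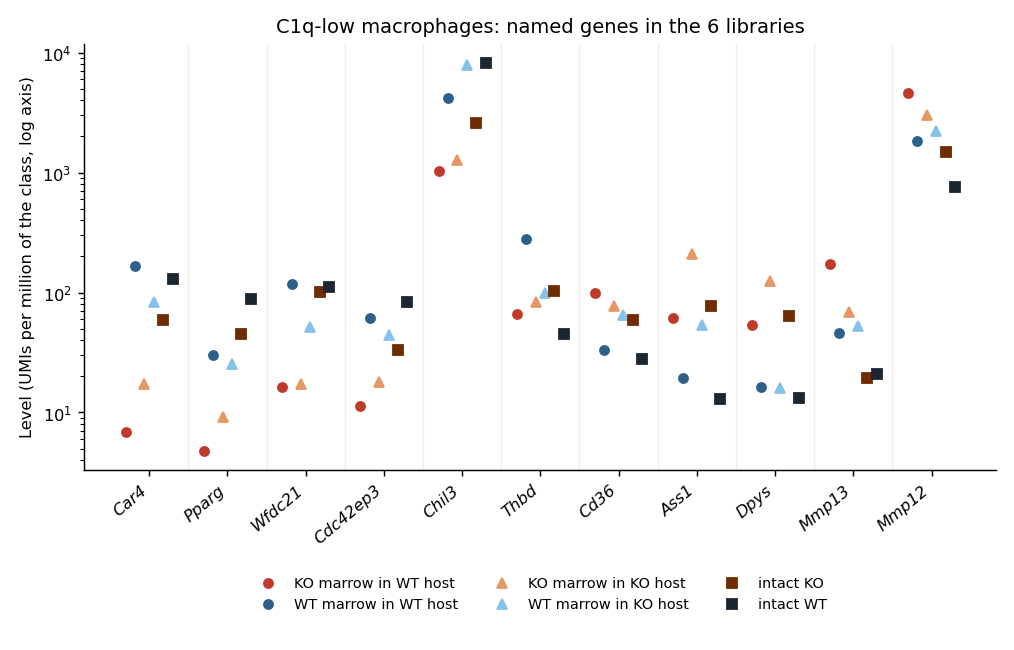
Levels of 11 named genes in C1q-low macrophages (CPM of the class, log axis), 1 point per library, circles for WT hosts, triangles for KO hosts and squares for intact mice. Car4, Pparg, Wfdc21, Cdc42ep3, Chil3 and Thbd lie lower and Cd36, Ass1, Dpys, Mmp13 and Mmp12 higher with KO marrow in WT hosts, with Car4 at 6.87 and 166 and Mmp12 at 4630 and 1845.

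Neutrophils, 276 and 450 cells of shallow depth (medians 2262 and 2358 UMIs), differed in some genes spread over many cells and in others that rested on single cells. Of 3629 genes 96 (2.65%) were past 2-fold, 58 (1.6%) higher and 38 (1.05%) lower. Ankrd33b, an ankyrin repeat gene, was the clearest, at 115 and 499 CPM in 58 and 248 cells (log2 ratio -2.12, -2.46 to -1.80), and stood at 35.9 and 177 CPM in KO hosts and 127 and 541 in intact KO and WT mice. Slc26a11, an anion transporter, stood at 21.1 and 70.5 CPM, Chka, choline kinase, at 42.2 and 111, and Aph1c, a gamma-secretase subunit, at 27.7 and 77.7. Gclm, of glutathione synthesis, stood at 166 and 53.9, Lipa, the lysosomal acid lipase, at 116 and 36.5, and Plac8 at 233 and 79.2 CPM. Prdx1, a peroxiredoxin, at 1989 and 151 CPM, Mmp12, at 918 and 72.9, and Chil3, at 104 and 723, rested on single cells, since 3 cells held 87.9% and 96.3% of the first 2 with KO marrow and 91.2% of Chil3 with WT marrow. Without the 3 highest cells Mmp12 had a log2 ratio of -0.37. Of 9 measured genes of the monocyte list 3 were past 2-fold higher (Ly6c2, Plac8 and Ly6a) and 6 were above 1, with a median log2 ratio of 0.51, against 0.04 over all genes. Ly6c2, a surface protein of inflammatory monocytes, stood at 58.0 and 21.4 CPM. The monocyte markers of the class check, which include Ly6c2 and Plac8, summed to 1231 and 751 CPM in the neutrophils, and the part of monocyte RNA was not tested. Interferon genes were above 1 in 10 of 12 cases, with a median of 0.19.

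Conventional CD4 T cells (59 and 60) and T cells without a CD8, CD4 or gamma-delta call (76 and 69) were few, and many of their named differences came from a handful of cells. In CD4 T cells 82 (4.98%) of 1647 genes were past 2-fold, 36 (2.19%) higher and 46 (2.79%) lower. Ccr7 stood at 524 and 122 CPM in 20 and 19 cells (log2 ratio 2.11, 1.58 to 2.67), with 61.4% of its UMIs with KO marrow in 3 cells, while Il7r was lower at 439 and 908 in 34 and 51. Naive and memory genes had 2 of 9 measured members past 2-fold higher and 1 lower (median log2 ratio 0.11), against a median of -0.01 over all genes. Further named genes were Pdcd1, the checkpoint receptor PD-1, at 295 and 132 in 24 and 13, and Penk, proenkephalin, at 860.3 and 88.8 in 10 and 2. Cst3, a protease inhibitor of macrophages, and Hnrnpab stood at 679 and 210.5 and at 322 and 138 CPM. Ctla2a, a cathepsin inhibitor of activated T cells, was lower, at 380.5 and 1190 CPM in 22 and 54 cells (log2 ratio -1.65, -1.97 to -1.33). The chemokine Ccl5 was lower at 82.3 and 2687 CPM, with 81.4% of its UMIs with WT marrow in 3 cells, and so were Ccl6, Spp1 and Plin2, at 44.6 and 483, 151 and 1059, and 72.0 and 296 CPM. The 8 macrophage markers summed to 2728 and 2361 CPM in these cells, higher with KO marrow.

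In the T cells without a further call 125 (6.43%) of 1945 genes were past 2-fold, 40 (2.06%) higher and 85 (4.37%) lower. Their naive and memory genes resembled those of the CD8 T cells, with 5 of 10 past 2-fold higher (Tcf7, Lef1, Ccr7, S1pr1 and Id3) and a median log2 ratio of 0.99, against -0.03 over all genes. Tcf7 stood at 173 and 73.7 CPM and S1pr1 at 288 and 79.0. The 5 measured class II genes were past 2-fold higher as well, but 3 cells held 78.6% of the H2-Aa, 87.4% of the H2-Eb1 and 87.4% of the Cd74 UMIs with KO marrow, and the B cell gene Igkc stood at 164 and 7.90 CPM in the class. Cst3 stood at 1075 and 339.6 CPM, and Spp1, Cd9, Tuba1a, Lgals1 and S100a6 were lower, Spp1 at 553 and 2130 CPM. Without the 3 highest cells the log2 ratios of these 5 lower genes lay between -0.18 (Lgals1) and 0.

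The mesenchymal or tumour cells, 489 and 408 cells with nearly equal Mtdh in both libraries, differed in some of the same gene lists. Of 10661 genes 140 (1.31%) were past 2-fold, 69 (0.647%) higher and 71 (0.666%) lower. Interferon genes were above 1 in 16 of 19 cases with a median log2 ratio of 0.44, and 4 (Cxcl9, Iigp1, Ifit1 and Ifit3) were past 2-fold higher. Cxcl9 stood at 21.5 and 1.14 CPM, with 90.0% of its UMIs with KO marrow in 3 cells. Genes of cholesterol synthesis and transport were above 1 in 1 of 14 cases, with a median of -0.45, against 0 over all genes. Krt16, a keratin of stressed epithelium, stood at 15.7 and 0.965 CPM in 24 and 7 cells, Lbp, which binds bacterial lipopolysaccharide, at 17.5 and 3.42, Nppb, the brain natriuretic peptide gene, at 10.2 and 1.67, and Ptn, pleiotrophin, at 9.36 and 1.49. Lower were Gzmd at 0.240 and 10.2 CPM and Fabp4 at 0.560 and 14.0, with 92.2% and 94.4% of their UMIs with WT marrow in 3 cells, Acta2, smooth muscle actin, at 2.0 and 15.7, and Ccl17 at 9.68 and 45.4. Col1a2, a type I collagen chain, stood at 11.3 and 45.7 CPM, and without the 3 highest cells its log2 ratio was 0.06.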

How the data were processed

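Single-cell transcripts of CD45+ tumour cells were counted in 6 libraries, 1 per group. Each deposited matrix holds whole-number UMI counts of genes in called cells, made by the authors with Cell Ranger 6.1.1 for the 4 transplanted libraries and 7.0.1 for the 2 intact ones, per the file headers, on mm10, per the submitters' processing notes; Seurat is listed there too. The sources used here do not say how intron reads and free RNA were treated, and the 2 program versions can differ between the transplanted and the intact libraries, not within the pair compared.

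A cell was kept if it had 500 UMIs and 200 genes or more and no more than 15% mitochondrial UMIs. The doublet caller in scanpy 1.11.5 marked 2 and 3 cells and was taken as not having worked, so the 6% of cells with the highest doublet scores in each library were removed. Classes were set by marker UMIs: T cells by at least 3 of Cd3d, Cd3e, Cd3g and Trac, CD8 T cells among them by at least 2 of Cd8a and Cd8b1 and more of these than Cd4, B cells by at least 3 of a set of B cell genes that includes Cd79a, Cd79b and Ms4a1, NK cells by at least 3 of Ncr1, Klrb1c and Klre1, C1q-high macrophages by 30 per 10000 of the C1q genes, C1q-low macrophages by at least 3 of a set of macrophage genes that includes Adgre1, Csf1r and Mrc1 with less C1q, neutrophils by 20 per 10000 of granule and receptor genes led by S100a8 and S100a9, and mesenchymal or tumour cells by 5 per 10000 of keratin, collagen and matrix genes. Clusters come from a joint Leiden clustering (leidenalg 0.10.2).

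UMIs were summed per class and library, and gene ratios were taken over class totals for genes with at least 50 UMIs over both libraries, in classes of at least 50 cells in each library. A gene was counted as past 2-fold where the ratio was at least 2 or at most its inverse and the exact conditional binomial 95% interval excluded 1. Shares carry Clopper-Pearson and levels exact Poisson intervals (scipy 1.17.1). Named genes had at least 100 UMIs, UMIs in at least 10 cells of the higher library and at least 10% of the highest level of another class, ranked by the interval bound nearest 1: 10 per direction in CD8 T cells and macrophages, 5 in other classes, and up to 4 members per gene list of at least 10 CPM. The interval code was tested on simulated data. The 23 gene lists, the comparison and the named classes were chosen with earlier results of these data known, so the lists give no independent support. Some genes of the lists and class markers are counted but not reported here by name. Scaling by edgeR 4.0.16 (TMM) and DESeq2 1.42.0 size factors, other filters, gates and weights were tried as alternatives.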

Additional observations from a re-analysis of the deposited data

Results flagged for a closer look

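Some named genes lay past 2-fold one way in WT hosts and past 2-fold the other way in KO hosts, each pair with 1 library a side, and the difference was not tested. In CD8 T cells this held for 8 of 18 genes with the largest differences, while 3 were past 2-fold the same way. Over all 4966 genes measured in both pairs 43.7% kept their direction in KO hosts, and 49.5% of the 109 past 2-fold in WT hosts did. The log2 ratios of KO over WT marrow in KO hosts were -3.669 for Dapl1, -1.886 for Igfbp4, -1.393 for Gzma and -1.142 for Ccr7, which were higher with KO marrow in WT hosts. They were -2.385 for Klf2, -3.577 for S1pr1 and -3.311 for Tcf7. For Crem, lower with KO marrow in WT hosts, the value in KO hosts was 1.075. The KO marrow library of KO hosts held 1211 CD8 T cells and the WT marrow library 85.

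In C1q-high macrophages 3 of the 20 such genes lay past 2-fold the other way and 5 past 2-fold the same way. In direction alone 9 of the 20 were the same in KO hosts, and 46.2% of all 12029 genes. The log2 ratio in KO hosts was -3.402 for Xlr and -2.087 for Slc15a2, both higher with KO marrow in WT hosts, and 1.244 for Csf3, the granulocyte growth factor, which was lower there. In C1q-low macrophages 0 of 20 such genes lay past 2-fold the other way in KO hosts, and 11 lay past it the same way. In direction alone 16 of 19 measured were the same, and 54.8% of all 8001 genes.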

How the results depend on the processing

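Each result rests on 1 library a side, and the intervals cover counting error only. No paired analysis was possible because the labels carry no replicate numbers and each group is 1 library. The B cell, NK cell and neutrophil shares kept their direction with a change within their counting interval under the alternatives that applied to them (doublets kept, stricter gates, at least 1000 UMIs, at most 10% mitochondrial UMIs and, for B cells and neutrophils, classes from clusters). The log2 ratio of the CD8 T cell share was 0.51 over T and NK cells, that of C1q-high macrophages 0.16 over myeloid cells and -0.20 without cluster 2, and that of C1q-low macrophages -0.88 without cluster 16. Mtdh in C1q-high macrophages had a log2 ratio of -2.40 with every cell given the same weight. The numbers of genes past the fold, in the order C1q-high and C1q-low macrophages, neutrophils, CD8, CD4 and other T cells and mesenchymal or tumour cells, were 383, 625, 407, 375, 450, 588 and 442 with no count filter, 58, 120, 14, 19, 13, 18 and 41 with at least 200 UMIs, and 481, 922, 370, 372, 197, 293 and 527 at a fold of 1.5, against 140, 311, 96, 113, 82, 125 and 140. Neutrophils had 160 with classes from clusters, and other T cells 80 with equal weight. The neutrophil class from clusters also took in cluster 22, with 0 cells of the KO marrow and 25 of the WT marrow library. That cluster was led by Gzmf, Ccl12 and Gzmd and held no gated neutrophil. It enters every neutrophil value given here with classes from clusters.

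In C1q-high macrophages 4 class II genes were past 2-fold with classes from clusters, 6 class II and 5 interferon genes were past a fold of 1.5, and 0 and 1 were past 2-fold without cluster 2. In C1q-low macrophages 3 interferon genes were past 2-fold with at least 200 UMIs, 11 with a C1q threshold of 20 per 10000, and 3 without cluster 16. Of 99 named ratios past 2-fold 96 stayed past it with TMM, 97 with median ratio scaling, 96 with doublets kept, 87 with equal weights, 50 of 59 with classes from clusters, and 70 of 92 without the 3 highest cells of each gene. Ratios that turned were Prdx1 (-0.016) and Mmp12 (-1.29) in neutrophils with classes from clusters and, without the 3 highest cells, Mmp12 in neutrophils (-0.37), Saa3 in C1q-low macrophages (-0.29), Cxcl10 in CD8 T cells (0.44) and Col1a2 in mesenchymal or tumour cells (0.059), which rested on those cells. The C1q thresholds of 20 and 40, the results without cluster 2, cluster 16 or the 3 highest cells, and the shares without mesenchymal, mixed and ungated cells were chosen after seeing the data. For the gene counts and shares that moved, the cause was not tested beyond what each setting leaves out.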

Other observations

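In CD8 T cells, glycolysis genes had a median log2 ratio of -0.22, with 4 of 16 above 1, MHC class I genes -0.17 with 2 of 15, and heat shock and immediate early genes that respond to dissociation 0.28 with 10 of 13, none of them past 2-fold. The list of lipid-associated macrophage genes had 5 of 11 members past 2-fold higher in the CD8 T cells (Spp1, Fabp5, Cd9, Ctsl and Abca1), and beside them the macrophage markers were higher as given above. The suppressive myeloid list had 4 of 9 past 2-fold higher, and Arg1, arginase 1, had 77.9% of its UMIs with KO marrow in 3 cells.

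In C1q-high macrophages genes of resident macrophages had a median log2 ratio of -0.13, lipid-associated genes 0.05, fatty acid oxidation 0.04, cholesterol -0.07 and glycolysis -0.06, with 0 members of these 5 lists past 2-fold. In the complement list 1 of 11 members was past 2-fold higher, C3, the central complement component, at 24.9 and 10.1 CPM (1.31 on the log2 scale). In C1q-low macrophages MHC class I genes were above 1 in 14 of 15 cases, 3 of them past 2-fold (H2-Q6, H2-Q7 and Nlrc5, the class I transactivator), with a median of 0.46. Glycolysis genes in conventional CD4 T cells were above 1 in 0 of 12 cases, with a median of -0.40, against -0.01 over all genes of that class. Cytotoxic genes in mesenchymal or tumour cells, where transcripts of killer cells are out of place, were above 1 in 0 of 7 cases, with 3 past 2-fold lower.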
